A study of Mus musculus with 8 samples.

Results

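The Wnt pathway genes of mouse embryonic palate cells were examined for their response to 60 min of ephrin-B1. The set comprised the genes whose array symbol is that of a Wnt ligand, of a Frizzled or other Wnt receptor, of a secreted or membrane Wnt modulator, of the cytoplasmic Dishevelled, Axin, Dact and Nkd proteins, or of a TCF/LEF factor. It held 60 of the 17711 genes with a named probe on the array, and 97 probes. The cells were MEP cells, primary cells grown from palatal shelves of E13.5 embryos of the strain CBA;C57BL6 N2, in serum-containing medium, and used at passage 1. Ephrin-B1 is a membrane-bound ligand of Eph receptor tyrosine kinases, and its Fc fusion protein acts on these receptors once clustered. The induced group was given the clustered fusion protein at 2 ug/ml for 60 min and had 4 arrays, and the uninduced group, described as a control induction, had 4. Whether uninduced cells received the clustering reagent by itself is not in the labels, and neither is the number of embryos behind a culture. Arrays carrying the same replicate number lay on the same slide, with replicate 1 on slide 1, replicate 2 on slide 2 and replicates 3 and 4 on slide 3. The labels do not say that replicates were separate cultures, so the spread that the p-values measure may be technical. In the main test it is the spread of the differences between arrays of the same replicate number. In the test without a block it is the spread between the arrays of a group. In each test limma also draws a gene's spread toward that of other genes, of similar intensity where a variance trend is fitted. An SE or p-value therefore does not come from the gene's own arrays alone.

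Wnt proteins are secreted lipid-modified ligands that need the acyltransferase Porcn and the carrier Wls to leave the cell. They bind Frizzled receptors together with Lrp5 or Lrp6, and Dishevelled then halts the Axin complex that degrades beta-catenin, which enters the nucleus and acts with TCF/LEF factors. Other ligands, such as Wnt5a, signal through Ror2, Ryk and cell polarity proteins instead. R-spondins strengthen the signal, whereas Sfrp and most Dkk proteins restrain it. In the palatal shelves Wnt signals are known to act in outgrowth, patterning and fusion.

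The measured palate mesenchyme markers numbered 11 of 12 with a probe, and only Tbx22 was above background on no array. Of 10 epithelial markers 2 were measured, and Epcam, Krt5, Krt15, Trp63, Perp and Esrp1 were above background on no array. Of 9 macrophage and leukocyte markers with a probe 8 were measured, while Ptprc was not above background. Their summed normalized intensity ranged from 387 to 753 on uninduced and from 370 to 809 on induced arrays. The measured markers numbered 3 of 8 for endothelium, 4 of 5 for glia and neurons and 1 of 7 for skeletal muscle. In each of these 6 lists 0 markers were called by the test used below; the most changed by p were Osr2 in the mesenchyme list (0.25 on the log2 scale, adjusted p = 0.0885 by limma) and Kdr in the endothelial list (0.37, adjusted p = 0.30). Without a block limma called 0 of them as well, and 0 had an unadjusted p under 0.05. In total 32.8% to 37.2% of the 46632 probes were above background on each array.

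Of the 60 Wnt genes, 33 were measured, meaning that a probe passed the detection limit (p under 0.05), and so was above background, on 4 or more of the 8 arrays. All 8 arrays were above background for 27 of these 33. The other 27 genes gave no test. For 21 of them no probe was above background on any array, for 3 the best probe was above it on 1 array, for 1 on 2 arrays and for 2 on 3 arrays. The plot of detection by gene shows that the number of arrays with detection differed between the groups for 3 of the 33 measured genes, Wnt2b, Fzd8 and Fzd10, and 0 genes were above background on all arrays of a group and on none of the other. In RNA from whole cultures, fewer cells of a type and less RNA per cell cannot be told apart.

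**Figure D1:**
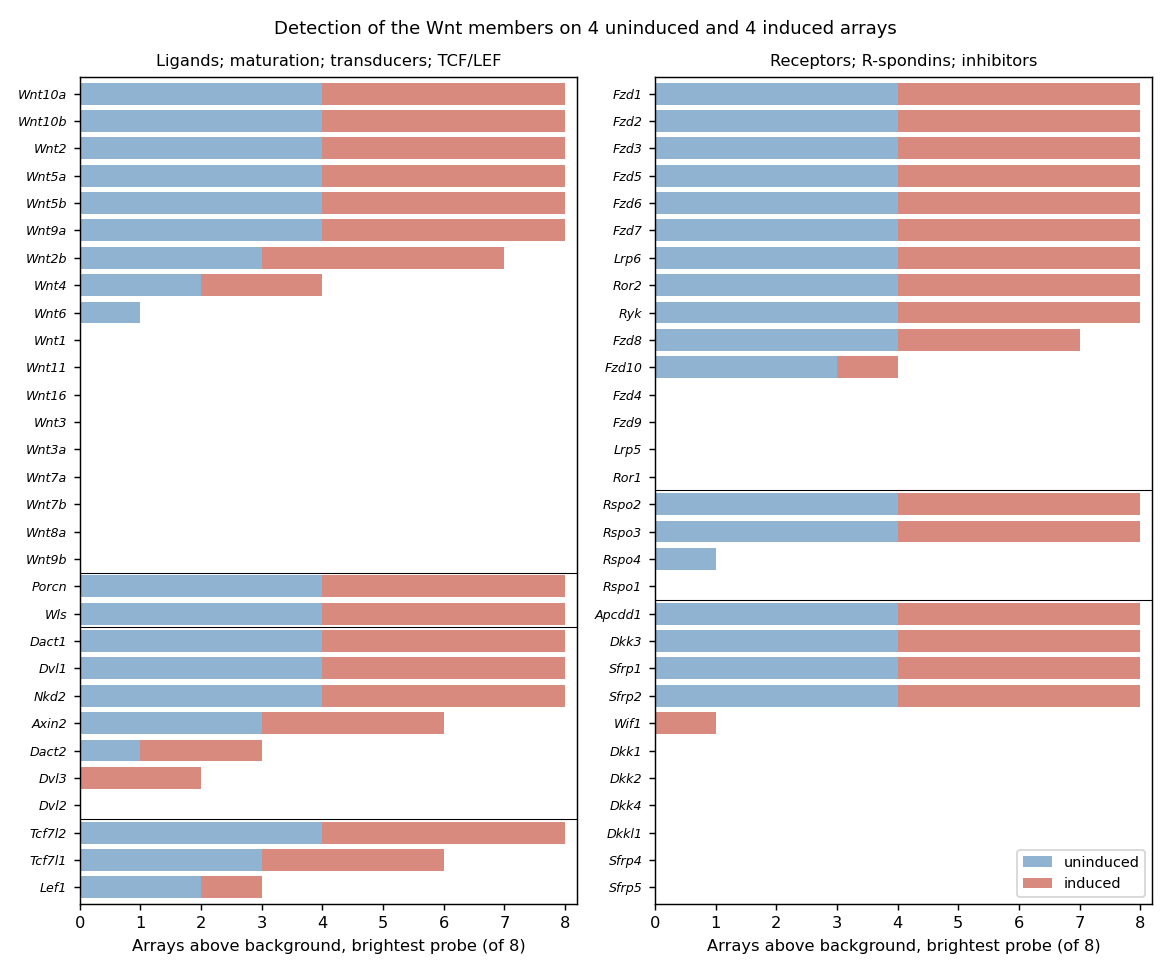
Number of arrays on which each of the 60 Wnt genes was above background (x axis, of 8), shown for the brightest measured probe or, where none was measured, the brightest probe. Blue bars are the 4 uninduced and red bars the 4 induced arrays; black lines separate the roles. Most genes lie at 8 or at 0.

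Induction raised the transcripts of Wnt9a, a Wnt ligand, and of Dact1, a Dishevelled-binding regulator of the pathway, and lowered that of Fzd5, a Frizzled receptor. The changes were small, 1.35-fold and 1.26-fold up and 1.30-fold down. Of the 33 measured genes 2 rose, 1 fell and 30 were not called, by limma with the replicate number as a block (Benjamini-Hochberg adjusted p under 0.05 over 9396 genes). Over all 9396 genes the same rule called 54, or 0.575%, with 7 higher (0.0745%) and 47 lower (0.5%). Without the replicate block limma called 0 of the 33 Wnt genes, of which 3 had an unadjusted p under 0.05 (119 of all 9396 genes did), and 3 genes in all (0.0319%), with 1 higher (0.0106%) and 2 lower (0.0213%). With the slide as the block it called 0 of the 33 and 15 in all (0.16%; 2 higher, 0.0213%, and 13 lower, 0.138%), and with the replicate block but without a variance trend 0 of the 33 and 13 in all (0.138%; 1 higher, 0.0106%, and 12 lower, 0.128%). Fitted over 16514 probes with the block, 2 of the 41 Wnt probes rose and 1 fell, against 7 higher (0.0424%) and 47 lower (0.285%) of all probes, or 54 in all (0.327%). Over probes without the block 0 of the 41 were called, against 2 higher (0.0121%) and 1 lower (0.00606%), or 3 in all (0.0182%). The calls below therefore hold for the fit with the replicate block and a variance trend. The mean difference was above 0 for 20 of the 33 Wnt genes (60.6%) and for 49.2% of all genes, and its median was 0.02 on the log2 scale against -0.0014 over all genes.

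The promoters of the 3 called genes are shown because they are the regulatory sequence next to the transcripts that moved. They are the bases before the annotated start, taken from RefSeq (GRCm38.p6), with capitals marking each GC box (GGGCGG, read on either strand), the site of Sp-family factors. The runs are chr11:59306680-59306848 on the plus strand for Wnt9a, chr12:71309634-71309883 on the plus strand for Dact1 and chr1:64737751-64738000 on the minus strand for Fzd5. The Wnt9a run ends where another annotated transcript begins.
Wnt9a: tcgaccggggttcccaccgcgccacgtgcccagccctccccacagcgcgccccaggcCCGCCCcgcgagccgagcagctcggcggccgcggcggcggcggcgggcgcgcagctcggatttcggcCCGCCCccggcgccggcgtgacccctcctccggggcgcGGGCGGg
Dact1: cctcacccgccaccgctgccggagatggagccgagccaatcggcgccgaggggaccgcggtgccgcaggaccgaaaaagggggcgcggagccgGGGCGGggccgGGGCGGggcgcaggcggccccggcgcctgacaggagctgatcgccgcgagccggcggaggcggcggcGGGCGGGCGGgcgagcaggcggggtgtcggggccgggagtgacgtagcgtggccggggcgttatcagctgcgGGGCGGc
Fzd5: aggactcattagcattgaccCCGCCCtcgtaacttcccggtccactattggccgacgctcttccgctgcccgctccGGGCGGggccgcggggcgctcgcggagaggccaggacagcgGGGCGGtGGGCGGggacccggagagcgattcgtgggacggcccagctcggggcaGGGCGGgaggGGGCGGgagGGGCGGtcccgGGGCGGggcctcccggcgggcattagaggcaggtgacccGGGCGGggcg
All 3 are rich in G and C, with 84.4%, 80.4% and 76.4% of the 250 bases before the start in the same order. The GC box occurs 5 times in this window of Wnt9a, 5 times in that of Dact1 and 9 times in that of Fzd5. In Wnt9a 3 of them lie in the printed run, and in Dact1 a pair overlaps. It was present in 32.7% of all 32851 promoter windows and in 75.5% of the 49 windows of the 42 Wnt genes found in the table, whose median G and C content was 66.8% against 52.4% over all windows. The TCF/LEF letters CTTTGAT were found in none of the 3 windows, in 4.1% of the Wnt gene windows and in 3.2% of all, and the AP-1 letters TGANTCA in none of the 3 and in 6.7% of all. The core TGACGT of the cyclic AMP response element was found in the Dact1 window and in 6.5% of all. Both strands were read for each motif, and none of the motifs contains another.

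Among the ligands, 8 of 18 genes were measured. Wnt9a (Entrez 216795), which in mice takes part in joint formation, had normalized log2 intensities of 10.15, 9.88, 9.42 and 9.91 in uninduced replicates 1 to 4 and of 10.41, 10.51, 9.78 and 10.42 in the induced ones. Every induced array lay above its own partner, whereas the groups overlapped because both arrays of replicate 3 were low. The means were 9.84 ± 0.30 and 10.28 ± 0.34 (SD, n = 4 each). The log2 difference was 0.44 (SE 0.063, adjusted p = 0.00122 by limma), with pair differences of 0.25, 0.63, 0.36 and 0.50. Without the block the SE was 0.18 and the adjusted p 0.9998 (unadjusted p = 0.0323). The call rests on 1 probe, since the other Wnt9a probe, assigned to the same RefSeq transcript, was above background on no array. Slide 3 by itself gave a difference of 0.43 (adjusted p = 0.00772 by limma), and slides 1 and 2 together gave 0.44 (adjusted p = 0.000124 by limma). The latter averages unlike values, 0.25 on slide 1 and 0.63 on slide 2. With so few pairs, both p-values lean on the spread of other genes and say little about agreement between the pairs. The call also held without any one of the 4 pairs (adjusted p from 0.00245 to 0.0214). Over 17 alternatives the difference lay between 0.37 and 0.50 and passed in 14, with adjusted p from 1.7e-05 to 1.

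Wnt5a (Entrez 22418), the main ligand of the beta-catenin-independent branch and a gene needed for palate growth in mice, had 10.93, 10.80, 10.84 and 11.22 in uninduced and 10.80, 10.86, 10.71 and 11.11 in induced replicates. These values overlap throughout, and replicate 4 was the highest in both groups. The difference was -0.08 (SE 0.052, adjusted p = 0.742). Wnt5a had 3 measured probes, and the other 2 gave -0.17 (SE 0.077) and 0.09 (SE 0.14), neither called. Wnt4 (Entrez 22417), a ligand with roles in kidney and gonad, was near background, above it on 2 arrays of each group. Its values were 4.96, 4.59, 5.17 and 5.19 in uninduced and 5.53, 5.24, 4.93 and 5.14 in induced replicates. Both arrays of slides 1 and 2 were higher after induction and both of slide 3 lower, and the mean difference of 0.23 (SE 0.15) was not called.

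The other measured ligands were Wnt2b, Wnt10b, Wnt5b, Wnt2 and Wnt10a, which differed by 0.18, -0.15, -0.08, -0.02 and -0.02 in that order, none of them called (lowest adjusted p 0.741, highest 0.983). In Wnt10b, a ligand that favours bone over fat formation, 3 of 4 pairs were slightly higher, and the negative mean came from replicate 2, with 6.16 uninduced and 5.41 induced. The 10 ligands without a measurement were Wnt1, Wnt3, Wnt3a, Wnt6, Wnt7a, Wnt7b, Wnt8a, Wnt9b, Wnt11 and Wnt16. In the RefSeq gene table Wnt9a lies next to Wnt3a, with no other protein-coding gene between them, as do Wnt10a next to Wnt6, Wnt10b next to Wnt1 and Wnt9b next to Wnt3. In the first 3 of these neighbouring couples 1 gene was measured and the other was not, and in the last neither was measured.

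Both genes for ligand maturation and secretion were measured. Porcn (Entrez 53627), the acyltransferase, had 5.92, 5.53, 6.05 and 5.72 in uninduced and 5.90, 6.08, 5.91 and 6.01 in induced replicates. Pairs 2 and 4 were higher and pairs 1 and 3 slightly lower, and the difference of 0.17 (SE 0.13) was not called. Wls (Entrez 68151), the carrier, had 10.34, 10.23, 10.15 and 10.13 in uninduced and 10.51, 10.24, 10.26 and 10.10 in induced replicates. Its groups overlapped, with a difference of 0.07 (SE 0.054, adjusted p = 0.796). Its 2 dimmer measured probes gave 0.21 (SE 0.095) and 0.24 (SE 0.13), both of the same sign and not called.

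**Figure D2:**
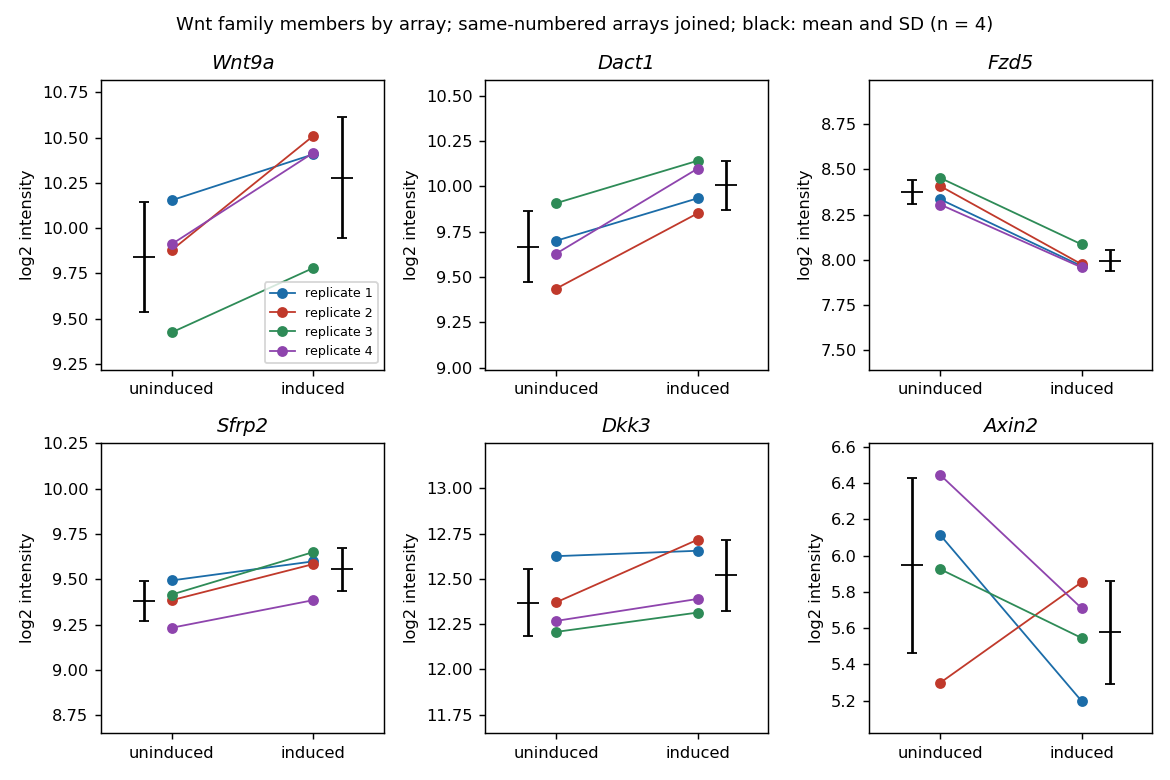
Normalized log2 intensity (y axis, each panel spanning the same range) of 6 Wnt genes on each array, uninduced at the left and induced at the right of each panel. Coloured lines join arrays of the same replicate number and black bars give the mean and SD (n = 4). All 4 lines go up for Wnt9a, Dact1, Sfrp2 and Dkk3 and down for Fzd5, whereas in Axin2 replicate 2 goes against the other 3.

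Of 15 receptor and co-receptor genes 11 were measured and 1 was called. Fzd5 (Entrez 14367), a receptor of both branches that is needed in mice for yolk sac vessels, had 8.33, 8.41, 8.45 and 8.31 in uninduced and 7.97, 7.98, 8.08 and 7.96 in induced replicates. The groups did not overlap, with means of 8.37 ± 0.07 and 7.996 ± 0.06 (SD, n = 4 each). Of the 33 Wnt genes this held for 1, and of all genes for 1.2%, made up of 0.479% with the induced group higher and 0.724% with it lower. The fall of Fzd5 was a log2 difference of -0.38 (SE 0.07, adjusted p = 0.0115 by limma), and the pair differences of -0.37, -0.43, -0.37 and -0.35 were nearly equal. Without the block the SE was 0.095 and the adjusted p 0.9998 (unadjusted p = 0.00195).

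The Fzd5 call depended on every pair and on the probe. It was lost when any 1 pair was left out (without replicate 1, 2, 3 and 4 the adjusted p was 0.0817, 0.0704, 0.0827 and 0.0569), while the difference stayed between -0.39 and -0.36. A dimmer Fzd5 probe, above background on all 8 arrays, gave 0.02 (SE 0.12), with 5.62 in uninduced and 5.64 in induced cells on average. Both probes are assigned to the same RefSeq transcript, and 2 further Fzd5 probes were above background on no array. With the mean of its measured probes Fzd5 gave -0.18 (adjusted p = 0.58), and over 17 alternatives it passed in 7, with adjusted p from 0.00858 to 1.

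Fzd1 (Entrez 14362), another Frizzled, had 8.28, 7.94, 7.35 and 8.05 in uninduced and 8.37, 8.50, 7.70 and 7.89 in induced replicates. Both arrays of replicate 3 were the lowest of their group, and the difference of 0.21 (SE 0.098) was not called (adjusted p = 0.55). Ryk (Entrez 20187), a Wnt receptor with an inactive kinase domain, had 12.27, 12.21, 12.25 and 12.35 in uninduced and 12.17, 12.18, 12.30 and 12.28 in induced replicates, a difference of -0.04 (SE 0.048). Its groups overlapped throughout. Ror2, the receptor tyrosine kinase that Wnt5a binds, differed by -0.03 (SE 0.065), and Lrp6, the co-receptor of the beta-catenin branch, by -0.12 (SE 0.11). Lrp6 was lower on slides 1 and 2, with 5.76 to 6.20, than on slide 3, with 6.49 to 6.56, in either group. Fzd2, Fzd3, Fzd6, Fzd7, Fzd8 and Fzd10 differed by 0.02, 0.04, 0.21, 0.04, -0.12 and 0.01, with adjusted p from 0.642 to 0.992. Fzd4, Fzd9, Lrp5 and Ror1 were not measured.

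**Figure D3:**
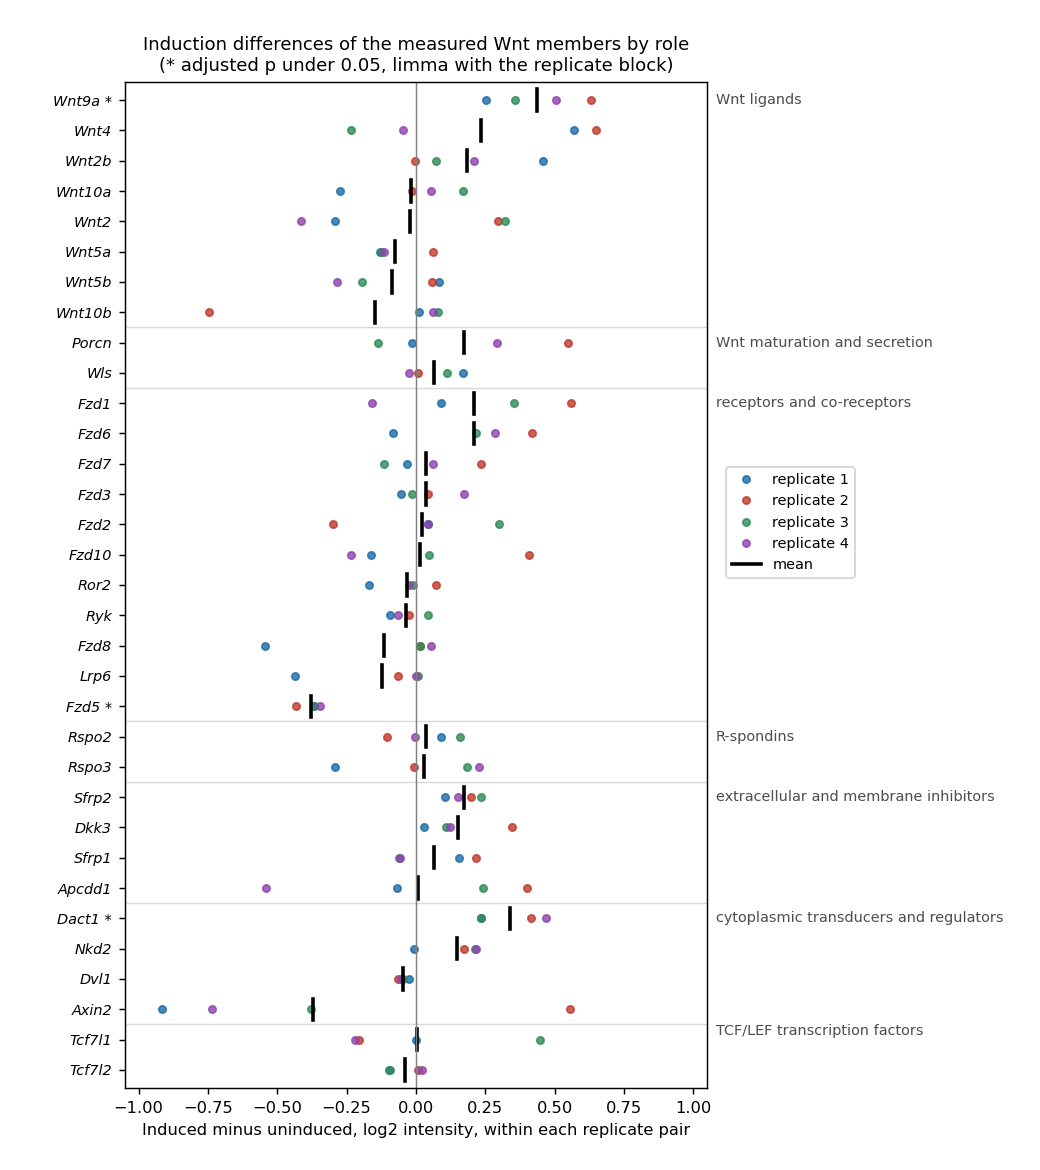
Induced minus uninduced log2 intensity (x axis) of the 33 measured Wnt genes (y axis, grouped by role), with 1 coloured point for each replicate pair and a black bar for their mean. An asterisk marks adjusted p under 0.05 by limma with the replicate block. The points of Wnt9a and Dact1 all lie right of 0 and those of Fzd5 all left, while most other genes have points on both sides.

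Of the 4 R-spondin genes Rspo2 and Rspo3 were measured, and neither was called. Rspo2 (Entrez 239405), needed in mice for limb and lung development, had 7.04, 6.48, 6.69 and 6.34 in uninduced and 7.13, 6.37, 6.85 and 6.34 in induced replicates, a difference of 0.04 (SE 0.097). Rspo3 (Entrez 72780), a related ligand needed in mice for placental vessels, had 7.77, 7.74, 6.83 and 7.21 in uninduced and 7.48, 7.73, 7.01 and 7.44 in induced replicates, a difference of 0.03 (SE 0.095). Both genes differed far more between replicates than between groups. Rspo2 was highest in replicate 1, and Rspo3 lowest in replicate 3, on both arrays of the pair.

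Of the 11 extracellular and membrane inhibitors 4 were measured. With the brightest measured probe all 4 had a higher mean after induction, without a call. Frzb, a secreted Frizzled-related protein that the set leaves out by its symbol, had a lower mean (-0.30), also without a call. Sfrp2 (Entrez 20319), a secreted Frizzled-related protein that binds Wnt ligands, had 9.49, 9.38, 9.42 and 9.23 in uninduced and 9.60, 9.58, 9.65 and 9.38 in induced replicates. Every pair was higher after induction, by 0.17 on average (SE 0.057), but the adjusted p of 0.337 by limma did not pass. Dkk3 (Entrez 50781), a divergent member of the Dickkopf family, had 12.63, 12.37, 12.21 and 12.27 in uninduced and 12.66, 12.72, 12.31 and 12.39 in induced replicates. All 4 pairs were again higher, by 0.15 on average (SE 0.054, adjusted p = 0.409 by limma), and replicate 2 gave the largest pair difference. In both genes the groups overlapped. All 4 pairs went the same way in 6 of the 33 Wnt genes (18.2%) and in 15.9% of all genes. Sfrp1, a relative of Sfrp2, and Apcdd1, a membrane inhibitor, differed by 0.06 (SE 0.062) and 0.01 (SE 0.12). A dimmer Sfrp1 probe, above background on every array, had the opposite sign, with -0.04 (SE 0.081). Dkk1, Dkk2, Dkk4, Dkkl1, Sfrp4, Sfrp5 and Wif1 were not measured, so the classical Dickkopf inhibitors gave no test here.

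Of the 7 cytoplasmic transducers and regulators 4 were measured. Dact1 (Entrez 59036), which binds Dishevelled and Vangl2 and is needed in mice for posterior development, had 9.70, 9.44, 9.91 and 9.63 in uninduced and 9.93, 9.85, 10.14 and 10.10 in induced replicates. Each induced array lay above its partner, and the groups overlapped only because uninduced replicate 3 lay above induced replicate 2. The means were 9.67 ± 0.19 and 10.01 ± 0.14 (SD, n = 4 each). The log2 difference was 0.34 (SE 0.059, adjusted p = 0.00813 by limma), with pair differences of 0.23, 0.42, 0.23 and 0.47. Without the block the SE was 0.11 and the adjusted p 0.9998 (unadjusted p = 0.0114). The call was lost without replicate 2 (0.31, adjusted p = 0.0704), without replicate 4 (0.29, adjusted p = 0.0787) and with the arrays of slides 1 and 2 only (0.33, adjusted p = 0.0522). It held with those of slide 3 only (0.35, adjusted p = 0.0377), where with so few pairs the p-value leans on the spread of other genes. Over 17 alternatives the difference lay between 0.29 and 0.37 and passed in 11. The call rests on 1 probe, since the other Dact1 probe, assigned to the same RefSeq transcript, was above background on only 1 array.

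Axin2 (Entrez 12006), a scaffold of the destruction complex and the standard read-out of beta-catenin signaling, was near background, above it on 3 arrays of each group. It had 6.11, 5.30, 5.93 and 6.45 in uninduced and 5.20, 5.85, 5.55 and 5.71 in induced replicates. The mean difference of -0.37 (SE 0.18, adjusted p = 0.577) hid pair differences of -0.92, 0.56, -0.38 and -0.74, of which replicate 2 went against the others. Without replicate 2 the difference was -0.68 and passed (adjusted p = 0.0465). Without replicate 1 it was -0.19 (adjusted p = 0.884), without replicate 3 -0.37 (adjusted p = 0.782) and without replicate 4 -0.25 (adjusted p = 0.838). Nkd2, which binds Dishevelled, differed by 0.15 (SE 0.073) with its brighter probe and -0.07 (SE 0.097) with the other, and Dvl1, a Dishevelled, by -0.05 (SE 0.06), lower in 4 of 4 pairs. Dact2, Dvl2 and Dvl3 were not measured.

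Of 3 TCF/LEF genes with a probe 2 were measured. Tcf7l2 (Entrez 21416) had 8.76, 8.71, 8.45 and 8.72 in uninduced and 8.66, 8.71, 8.35 and 8.74 in induced replicates, a difference of -0.04 (SE 0.065). Tcf7l1 (Entrez 21415), which mostly acts as a repressor, had 5.36, 5.53, 5.07 and 5.45 in uninduced and 5.36, 5.32, 5.52 and 5.23 in induced replicates, a difference of 0.01 (SE 0.14). Neither was called, and Tcf7l1 was near background. Lef1 had 4 probes, of which the brightest was above background on 2 uninduced arrays and 1 induced array, and was not measured.

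The range over replicates was wider than the mean difference on induction for nearly all of these genes, as for nearly all genes on the array. The plot of replicate range against difference shows this. A range is taken between extremes and the difference is a mean, so they are unlike measures. For 32 of 33 Wnt genes the range of the 4 pair means exceeded the size of the induced minus uninduced difference, and the same was true of 97% of all genes. Fzd5 was the exception, with a range of 0.14 and a difference of 0.38 in size. The widest ranges were those of Sfrp1 (0.86), Rspo3 (0.81), Fzd1 (0.80), Apcdd1 (0.79), Lrp6 (0.76), Rspo2 (0.74) and Fzd2 (0.70). In Sfrp1 replicate 1 had 10.08 uninduced and 10.23 induced, whereas replicate 3 had 9.32 and 9.26. For Wnt9a the range was 0.68. The median SD of the pair means was 0.17 over the Wnt genes and 0.16 over all genes. Replicate number and slide coincide for replicates 1 and 2, so a difference between their cultures and one between slides cannot be told apart.

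**Figure D4:**
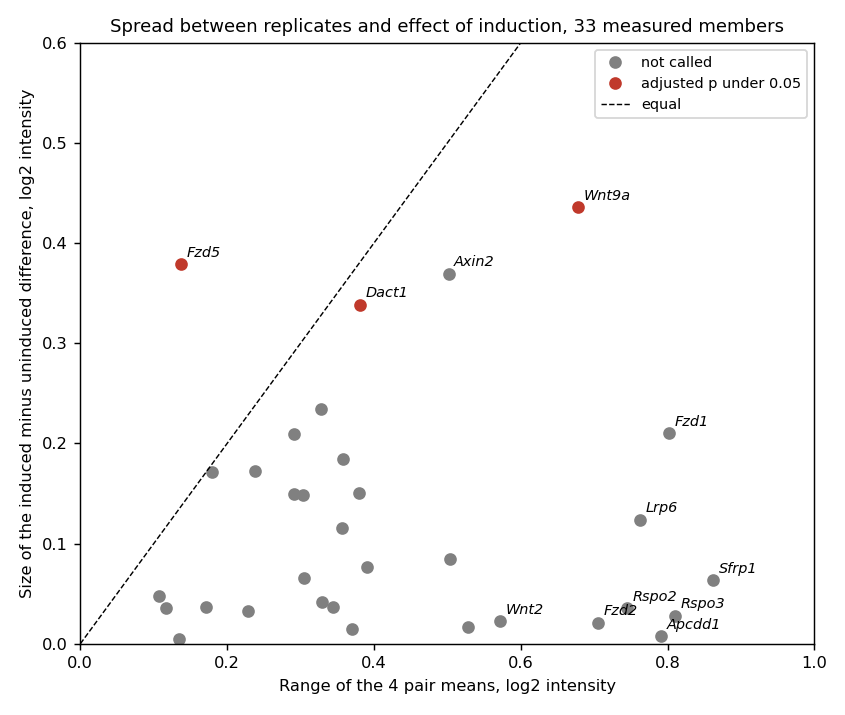
Size of the induced minus uninduced difference (y axis, log2 intensity) against the range of the 4 pair means (x axis, log2 intensity) for the 33 measured Wnt genes, 1 point per gene, with called genes in red. Points below the dashed line have a range of pair means wider than the size of their mean difference. Fzd5 lies above the line and all others below it.

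Other genes of the pathway were read from lists that the symbols above do not cover. Of 54 further pathway genes with a probe 33 were measured, 0 were called, 11 had a higher and 22 a lower mean, and 3 higher and 5 lower ones had an unadjusted p under 0.05 by limma with the replicate block. Of all 9396 genes 339 higher and 481 lower ones had such a p, and 49.2% had a higher mean. Without the block 0 of the 33 were called and 1 had an unadjusted p under 0.05, against 119 of all genes. The median difference was -0.04, against -0.0014 over all genes. Among genes at the cell surface, Frzb, a secreted Frizzled-related protein, Kremen1, a Dickkopf receptor, and Gpc3, a glypican, differed by -0.30, -0.18 and -0.15 (adjusted p from 0.474 to 0.507). They were lower in 4, 4 and 3 of 4 pairs in that order. The groups of Frzb, which was near background, did not overlap, as held for 1.2% of all genes. Around the destruction complex Csnk1e, a casein kinase, Tnks2, a tankyrase, and Gsk3b, the kinase that marks beta-catenin, differed by -0.13, -0.11 and 0.08, and Ctnnb1, the gene of beta-catenin, by -0.06 (SE 0.058). Of the nuclear cofactors Ctbp2 and Tle3, both corepressors, and Pygo1, a coactivator, differed by -0.21, -0.22 and 0.22. Of the planar cell polarity genes Prickle1 differed by 0.20 (SE 0.058, adjusted p = 0.234, higher in 4 of 4 pairs), Daam1 by 0.15 and Daam2 by -0.13.

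Of 18 genes with a probe that beta-catenin is known to activate in some tissue, 13 were measured, 0 rose and 2 fell, against 7 higher (0.0745%) and 47 lower (0.5%) of all 9396 genes. Myc, a growth-promoting transcription factor, had 6.67, 6.91, 7.03 and 7.0 in uninduced and 5.55, 6.11, 6.57 and 6.57 in induced replicates, and fell by 0.70 (SE 0.12, adjusted p = 0.00562 by limma). Its groups did not overlap, but the pair differences of -1.12 and -0.80 on slides 1 and 2 were larger than the -0.46 and -0.43 of slide 3. Without the block Myc had an adjusted p of 0.9998, as did Fosl1. The Myc call was lost without replicate 1 (-0.57, adjusted p = 0.0668), without replicate 2 (-0.67, adjusted p = 0.0538) and on slide 3 alone (-0.45, adjusted p = 0.131). Fosl1, a Fos-related AP-1 subunit, fell by 0.39 (SE 0.072, adjusted p = 0.0115 by limma), lower in 4 of 4 pairs, and was lost without replicate 1, 2 or 4 (adjusted p = 0.0567, 0.0905 and 0.0691). The fall of both genes was known when the list was drawn up and is no independent evidence of its direction. Plaur, the urokinase receptor, differed by -0.17 (adjusted p = 0.251). Ccnd1, Ccnd2, Cd44, Bmp4, Msx1, Msx2, Jag1, Ppard, Twist1 and Tnfrsf19 had differences from -0.07 to 0.14 and were not called.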

How the data were processed

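Illumina bead arrays with a single colour were used on total RNA. For every probe and array the deposited table gives an average bead intensity on a linear scale and a detection p-value, per the file headers, exported from GenomeStudio 1.6.0, per the submitters' processing notes. The authors' processed matrix of intensity values, background subtracted, has a median of 4.4 on every array, and how it was scaled between arrays is not given in the sources used here. It served as an alternative, floored at 16. No genome build is given, so positions are those of RefSeq.

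Background correction and quantile normalization were done with neqc (limma 3.58.1, R 4.3.3; negative controls inferred from detection p, offset 16). Probes with detection p under 0.05 on at least 4 of 8 arrays (16514 of 46632) were kept, and the brightest kept probe stood for each of 9396 genes. Since an intensity depends on its probe, levels of different genes were not compared. Groups were compared by lmFit and eBayes with a variance trend, two-sided, with the replicate number as a block. After subtracting group means, arrays with the same replicate number in their titles correlated across genes at 0.591 to 0.716, each above the limit of 0.1, and other combinations at -0.538 to 0.3. Subtracting group means itself pushes the other combinations toward negative values. For replicates 1 and 2 the correlations cannot tell pairing from slide. On slide 3, same-numbered arrays gave 0.716 and 0.62, and the other combinations 0.152 and 0.3. The fit was tested on simulated data. Values in every array are given for called genes, for the 2 genes of each role with the smallest p and for the brightest of each role, and of each other list the called genes and the 3 with the smallest p are named. Members, lists and the pairing were chosen with earlier results of these data known. The number of arrays limits the precision.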

Additional observations from a re-analysis of the deposited data

Results flagged for a closer look

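In 3 of the 66 sets of 4 arrays (33 Wnt genes in 2 groups) 1 array stood apart from the others by Dixon's ratio, which is 4.55% and close to the 1 in 20 that chance gives. Induced replicate 3 of Wnt9a had 9.78, against 10.41 to 10.51 on the other induced arrays. The uninduced array of the same replicate was also the lowest, with 9.42, and the difference without this pair was 0.46. Induced replicate 3 of Fzd5 had 8.08, against 7.96 to 7.98, and lay below every uninduced array. Uninduced replicate 3 of Tcf7l2 had 8.45, against 8.71 to 8.76, and the induced array of this replicate was the lowest of its group, with 8.35. All 3 values come from replicate 3.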

How the results depend on the processing

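No other background correction, offset, normalization (median scaling moved the median of all genes to 0.011), dim-probe filter or source of values ended a call of Wnt9a, Dact1 or Fzd5. Changing the block or dropping the variance trend ended all 3, and the mean of kept probes ended that of Fzd5. Fits to fewer pairs ended the Fzd5 call in every case and the Dact1 call in some. Without the replicate block 0 Wnt genes were higher and 0 lower, and 3 genes were called in all; with the slide as a block 0, 0 and 15; without the variance trend 0, 0 and 13. The cause of the last was not tested. Slide 3 alone gave 2 higher and 0 lower (61 genes in all), slides 1 and 2 alone 1 and 0 (67 in all), and the mean of kept probes 2 and 0 (41 in all). Leaving out 1 pair gave 1 to 2 higher and 0 to 1 lower, and 35 to 45 genes in all. The 1 lower gene without replicate 2 was Axin2, not Fzd5. Over all probes 2 Wnt probes were higher and 1 lower with the block, and 0 and 0 without a replicate block. Beta-catenin targets called lower numbered 0 without the replicate block, with the slide block, on slide 3 and without the variance trend, and 0 to 2 without 1 pair. On slides 1 and 2 alone 1 further pathway gene was lower, Gpc3 (-0.28). Signs turned, in genes never called, for Wnt4 on slide 3 (-0.14), Rspo2 (-0.0057), Rspo3 (-0.15) and Tcf7l1 (-0.10) on slides 1 and 2, Rspo2 (-0.0049), Rspo3 (-0.02) and Tcf7l1 (-0.14) without replicate 3, Rspo3 (-0.038) without replicate 4 and Gsk3b (-0.031) with the mean of probes. Without 1 pair Rspo2 ranged from -0.0049 to 0.082, Rspo3 from -0.038 to 0.13 and Tcf7l1 from -0.14 to 0.081. Other uncalled Wnt differences also moved by over 1.5 times, and without replicate 2 Wnt4 had 0.097, Porcn 0.046, Fzd1 0.095 and Dkk3 0.086. Fitting the trend over all kept probes, added after seeing the data, changed none of the counts by over 1.5 times. Requiring detection on all 8 arrays left 27 Wnt genes, with no value for Wnt4, Wnt2b, Fzd8, Fzd10, Axin2 and Tcf7l1, nor for Frzb and Tle3. Near background, as in Axin2 and Wnt4, signal limits what could be detected.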
